A study of Mus musculus with 17 samples.

Results

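Glucose use in liver cells was followed through 8 genes whose products carry out or feed glycolysis and exist in a liver form, a broadly expressed form or both. The genes were Slc2a2 and Slc2a1 (glucose transporters), Hk1 and Hk2 (hexokinases), Aldoa (an aldolase), Pklr and Pkm (pyruvate kinases) and Ldha (a lactate dehydrogenase). They were found by the gene name that each array's file gives its probes, which lists Pkm under its older symbol Pkm2. This gave 11 probes of 39429 on the array and 8 of its 31693 gene names. Hk1 had 2 probes, Ldha had 3 and each other gene had 1. All 11 probes passed the filter on dim signals.

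The 17 mouse arrays fell into 5 groups. Cells differentiated in vitro were hybridised on 4 arrays as differentiated hepatocytes and on 3 as differentiated cholangiocytes, the cells that line bile ducts. Primary hepatocytes had 4 arrays, primary cholangiocytes had 2 and undifferentiated adult hepatic progenitor cells, the starting cells of both cultures, had 4. Every group carried the same genotype: the mice, aged 6 to 10 weeks, came from crossing a Foxl1-CRE line with the Rosa26R YFP reporter, so that cells with a history of Foxl1-driven Cre are marked by yellow fluorescent protein. The labels give neither the time in culture nor the medium, and do not say whether arrays of a group came from separate animals or cultures. The p-values below therefore measure the spread between these arrays, which may be technical.

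Hepatocytes take glucose up and give it out according to its concentration in blood, and their isozymes fit this two-way traffic. GLUT2 (Slc2a2) is a transporter of low affinity that works in both directions, and liver pyruvate kinase (Pklr) is switched off by phosphorylation in fasting. Most other cells, and progenitor and biliary cells of the liver, use GLUT1 (Slc2a1), hexokinases of high affinity (Hk1, Hk2), aldolase A (Aldoa) and the muscle-type pyruvate kinase (Pkm).

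A level below is the log2 of a probe's background-subtracted intensity minus the log2 of the array's 75th percentile, so that 0 is the intensity at that percentile. A difference is one group's mean level minus another's. Its error is the standard error (SE) from limma, fitted over all 25977 kept genes, and "passed" means a Benjamini-Hochberg adjusted p under 0.05. Levels of different probes are not compared with each other.

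The 75th percentile intensity was 1909 to 2202 in differentiated hepatocytes, 1747 to 2022 in differentiated cholangiocytes, 546.6 to 986.4 in primary hepatocytes, 2696 to 2867 in primary cholangiocytes and 2111 to 2541 in undifferentiated cells. The primary hepatocyte arrays were thus the dimmest. Between 23816 and 29152 probes were well above background per array, and arrays of one group correlated at 0.947 to 0.983. Intensities of the 9 hepatocyte markers, such as Alb, each divided by the array's 75th percentile, summed to 7.66 to 485 in differentiated hepatocytes, 2.36 to 12.4 in differentiated cholangiocytes, 3100 to 4480 in primary hepatocytes, 0.762 to 12.5 in primary cholangiocytes and 0.13 to 103 in undifferentiated cells. In cells labelled differentiated hepatocytes, 0 of these 9 markers passed in limma against undifferentiated cells at an adjusted p under 0.05, where 15.3% of all genes did. Of the 9, 3 had an unadjusted p under 0.05, as had 7180 of all 25977 genes. The median difference of the 9 was 3.32, against 0.07 over all genes, while arrays within each of these 2 groups lay far apart. The 8 cholangiocyte markers, such as Krt19, summed to 80.3 to 112, 86.2 to 155, 0.571 to 1.21, 161 to 214 and 98.2 to 173 in the same order of groups, lowest in primary hepatocytes. Primary hepatocytes also had the highest summed levels of the 6 endothelial markers, at 7.75 to 12 against 1.15 to 2.77 elsewhere, and of 5 red blood cell markers, at 15.9 to 21.4 against 0.241 to 0.598 elsewhere. The red blood cell sum was mostly Alas2, at a mean level of 4.09, while Epb42 was above background on 0 of the 4 primary hepatocyte arrays. Of 8 leukocyte and Kupffer markers, 5 were higher and 2 lower in primary hepatocytes than in undifferentiated cells, with Clec4f at mean levels of -2.30 and -8.20 and Cd14 at -4.16 and 2.68. Of 6 kept stellate and fibroblast markers 4 were higher and 0 lower, with Dcn at 0.75 and -5.80. In this comparison 37.6% of all genes were higher and 26.6% lower. These 6 markers summed to 1.09 to 3.08 in primary hepatocytes, 0.26 to 3.12 in differentiated hepatocytes and 0.0862 to 0.118 in undifferentiated cells. The part of endothelial, blood, Kupffer and stellate cells in the isozyme results was not tested. Des, Hbb-b1, Hbb-bt and Ahsp were not among the kept genes. In bulk RNA, fewer cells of a type and less RNA per cell cannot be told apart.

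In primary hepatocytes the liver forms Slc2a2 and Pklr stood high and the broadly expressed forms Hk1, Hk2, Pkm, Aldoa and Slc2a1 stood low, compared with every other group. Primary hepatocytes were not tested against differentiated cholangiocytes, so for that group this describes the levels only. Against undifferentiated cells, all 8 genes passed, 5 lower and 3 higher, although the third of the higher ones, Ldha, turned in direction in the authors' deposited table. Of all genes, 64.2% passed in this comparison (37.6% higher and 26.6% lower), so the count itself sets the 8 little apart. The sizes ran from 1.79-fold higher for Ldha and 3.85-fold higher for Pklr to 200-fold higher for Slc2a2 and 634-fold lower for Pkm. They were not set against the sizes over all genes. In differentiated hepatocytes 0 of the 8 passed in limma against undifferentiated cells, where 15.3% of all genes did. Of the 8, 1 had an unadjusted p under 0.05, as had 7180 of all 25977 genes. Pairs of comparisons that share a group share its arrays.

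**Figure D1:**
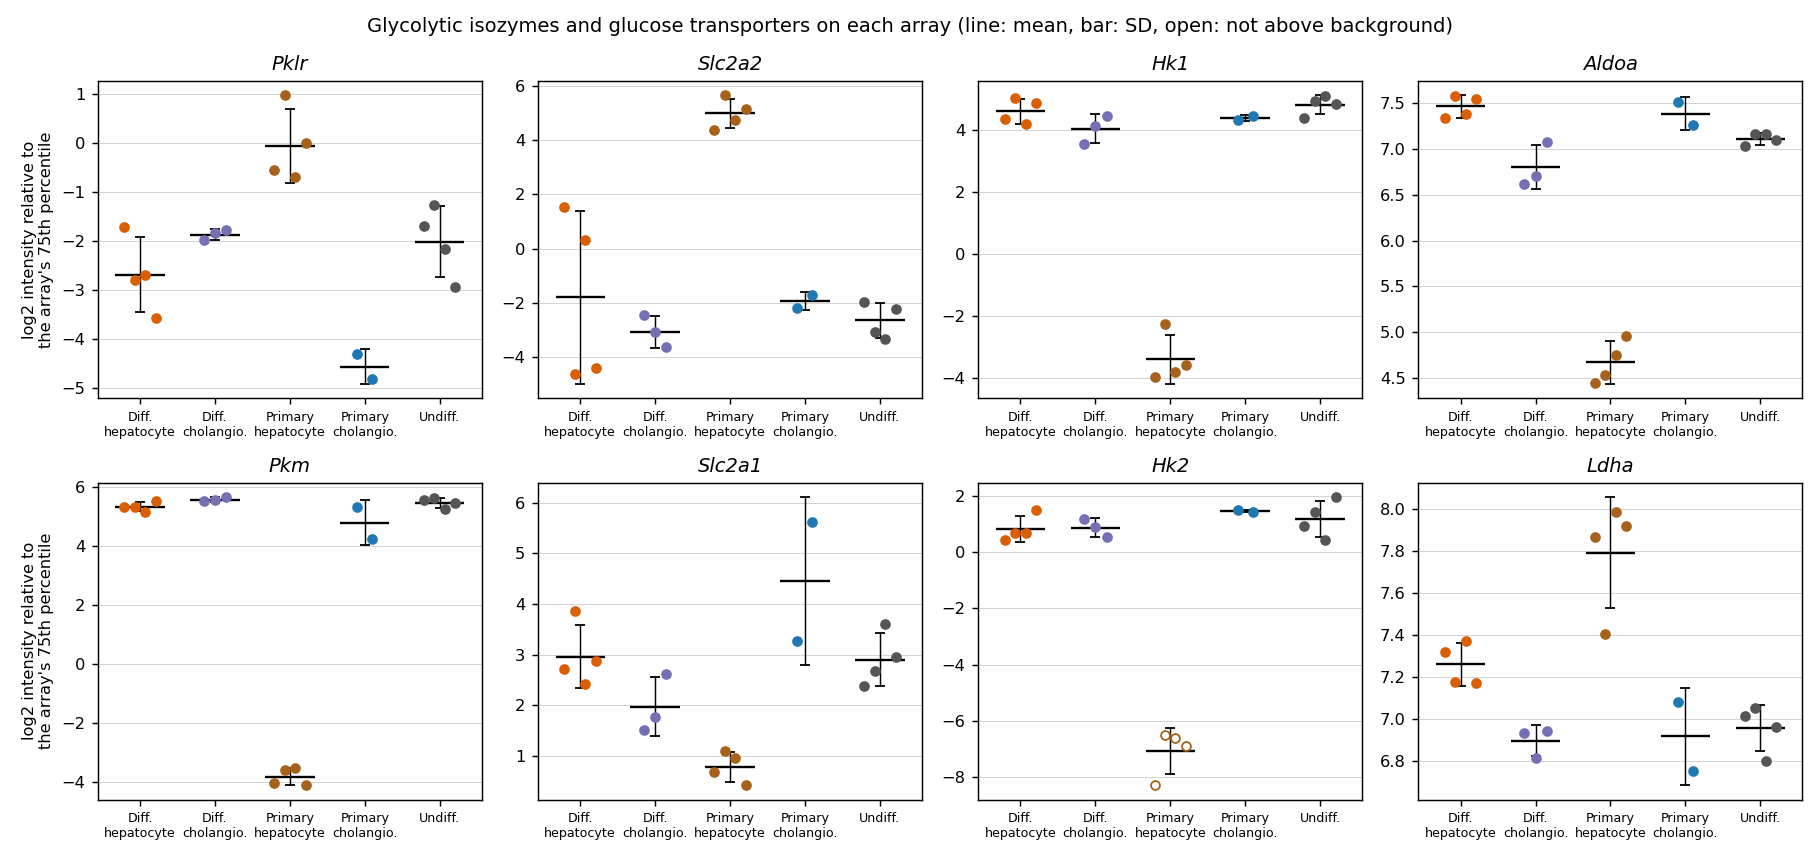
Level (log2 intensity relative to the array's 75th percentile) of the brightest probe of each of the 8 genes, 1 point per array, with the group mean as a line and the SD as a bar. Groups run from differentiated hepatocytes (n = 4) through differentiated cholangiocytes (n = 3), primary hepatocytes (n = 4) and primary cholangiocytes (n = 2) to undifferentiated cells (n = 4), and open points are not well above background. Primary hepatocytes lie lowest for Hk1, Hk2, Pkm, Aldoa and Slc2a1 and highest for Slc2a2 and Pklr, and the 4 differentiated hepatocyte arrays lie far apart for Slc2a2. They also lie highest for Ldha, an order that turns under quantile normalization.

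Glucose transport came first. Slc2a2, which encodes GLUT2, had levels of 1.53, -4.65, 0.31 and -4.40 in differentiated hepatocytes, -2.47, -3.10 and -3.64 in differentiated cholangiocytes, 4.39, 5.65, 4.76 and 5.15 in primary hepatocytes, -2.18 and -1.71 in primary cholangiocytes, and -1.97, -3.07, -3.33 and -2.24 in undifferentiated cells. Primary hepatocytes overlapped no other group. The differentiated hepatocytes split into 2 arrays above every undifferentiated array and 2 below them all. Slc2a2 was 200-fold higher in primary hepatocytes than in undifferentiated cells (difference 7.64 ± 1.10 SE, limma adjusted p = 3.14e-05, n = 4 and 4). It was 122-fold higher in primary hepatocytes than in primary cholangiocytes (6.94 ± 1.35, limma adjusted p = 0.000668). Differentiated hepatocytes were 111-fold lower than primary hepatocytes (-6.79 ± 1.10, limma adjusted p = 0.000109). Leaving out 1 differentiated hepatocyte array gave -5.85 (without replicate 2) to -7.91 (without replicate 1). Against undifferentiated cells they differed by 0.85 ± 1.10, which did not pass (limma adjusted p = 0.698). Without replicate 1 of the differentiated hepatocytes this difference was -0.26, and without replicate 2 it was 1.80.

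Slc2a1, which encodes GLUT1, the transporter of most tissues, ran the other way. Its levels were 2.71, 3.85, 2.41 and 2.87 in differentiated hepatocytes, 1.51, 1.78 and 2.63 in differentiated cholangiocytes, 0.68, 1.10, 0.95 and 0.42 in primary hepatocytes, 3.28 and 5.62 in primary cholangiocytes, and 2.39, 2.68, 3.60 and 2.95 in undifferentiated cells. Primary hepatocytes were below all other arrays, and the 2 primary cholangiocyte arrays were far from each other. The fit gave 4.34-fold lower levels in primary hepatocytes than in undifferentiated cells (-2.12 ± 0.46, limma adjusted p = 0.00115) and 12.7-fold lower than in primary cholangiocytes (-3.66 ± 0.57, limma adjusted p = 9.36e-05). Differentiated hepatocytes were 4.52-fold higher than primary hepatocytes (2.18 ± 0.46, limma adjusted p = 0.00105). Differentiated cholangiocytes were 5.57-fold lower than primary cholangiocytes (-2.48 ± 0.60, limma adjusted p = 0.00997). This last difference depends on primary cholangiocyte replicate 4: without it, which leaves 1 array in that group, the difference was -1.30. In a fit of the compared groups alone the call was lost (limma adjusted p = 0.171).

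The transporter pair is shown by the 250 bases before the annotated start of each gene, because its members moved in opposite directions. The sequences are RefSeq's for GRCm38.p6, at chr3:28697653-28697902 for Slc2a2 and chr4:119108495-119108744 for Slc2a1, both on the plus strand. Capitals mark matches to 7 short motifs searched on both strands. They were the E box CACGTG, the hypoxia response cores ACGTG (which every CACGTG also holds) with its variant form GCGTG, the GC box of Sp1-type factors (GGGCGG), the TATA box (TATAAA) and 2 spaced forms. In these, a short arm is followed by 5 bases of any kind and by its own reverse complement. The arm is CACGNG in the carbohydrate response form, which can overlap a hypoxia core, while it is GTTA in the HNF1 form.
Slc2a2: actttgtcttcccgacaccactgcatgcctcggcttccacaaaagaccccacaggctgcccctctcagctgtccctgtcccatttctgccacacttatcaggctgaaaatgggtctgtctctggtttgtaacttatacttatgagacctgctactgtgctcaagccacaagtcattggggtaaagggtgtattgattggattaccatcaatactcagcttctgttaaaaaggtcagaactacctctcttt
Slc2a1: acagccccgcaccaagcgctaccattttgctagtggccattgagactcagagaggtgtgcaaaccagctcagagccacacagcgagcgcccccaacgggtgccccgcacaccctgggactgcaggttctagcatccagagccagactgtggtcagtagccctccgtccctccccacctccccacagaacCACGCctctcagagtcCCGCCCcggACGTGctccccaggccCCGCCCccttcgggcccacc

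The Slc2a2 window held none of the 7 motifs, had a GC content of 47.2% and had 2 CpG dinucleotides. In the Slc2a1 window, GC content was 66.4% with 13 CpG dinucleotides, against medians of 52.4% and 6 over all 32851 windows. It held GCGTG on the minus strand at position -61, ACGTG at -36 and GGGCGG on the minus strand at -45 and -20, counted back from the start. Of all windows, 6.02% held CACGTG, 16.6% held ACGTG, 28.2% held GCGTG and 32.7% held GGGCGG, so these letters are common. A match is a description of the sequence only.

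The hexokinases phosphorylate glucose once it is inside the cell. Hk1, the housekeeping hexokinase bound to mitochondria, had levels of 4.33, 5.01, 4.17 and 4.86 in differentiated hepatocytes, 3.52, 4.13 and 4.45 in differentiated cholangiocytes, -3.98, -2.27, -3.81 and -3.60 in primary hepatocytes, 4.31 and 4.45 in primary cholangiocytes, and 4.38, 4.90, 5.08 and 4.83 in undifferentiated cells. Only the primary hepatocyte arrays were low, and the ranges of the other 4 groups ran into each other. Hk1 was 297-fold lower in primary hepatocytes than in undifferentiated cells (-8.22 ± 0.35, limma adjusted p = 1.2e-10) and 222-fold lower than in primary cholangiocytes (-7.80 ± 0.42, limma adjusted p = 3.34e-09). Differentiated hepatocytes were 257-fold higher than primary hepatocytes (8.01 ± 0.35, limma adjusted p = 1.88e-10). With normexp background correction these differences were -7.29, -6.87 and 7.10.

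The second Hk1 probe gave the same directions at a much smaller size. Its levels were -1.11, -0.08, -1.15 and 0.14 in differentiated hepatocytes, -1.57, -0.84 and -0.47 in differentiated cholangiocytes, -1.72, -1.97, -3.60 and -2.96 in primary hepatocytes, -0.77 and -0.48 in primary cholangiocytes, and -0.78, 0.00, -0.28 and -0.34 in undifferentiated cells. Here primary hepatocytes were again lowest, but by a margin smaller than the spread within any other group. Their highest array was at -1.72 and the lowest differentiated cholangiocyte array at -1.57. The difference of primary hepatocytes from undifferentiated cells was -2.21 ± 0.42 (limma over probes, adjusted p = 0.000373, where 64% of all probes passed), and that of differentiated from primary hepatocytes was 2.01 ± 0.42 (adjusted p = 0.000917, where 59.3% did). The size of the Hk1 change therefore depends on the probe. Both probes are annotated to the same number of RefSeq transcripts, which is 2. The second probe is printed because it disagrees in size; the files place it on the minus strand at chr10:61732717-61732776, in a genome build not given in the sources used here.
Hk1 probe 2: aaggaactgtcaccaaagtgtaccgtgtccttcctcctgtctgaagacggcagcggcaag

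Hk2, the insulin-regulated hexokinase of muscle and fat that is often high in growing cells, was not well above background on any primary hepatocyte array, where the measured levels were -8.29, -6.51, -6.62 and -6.89. Elsewhere its levels were 0.44, 0.69, 0.67 and 1.50 in differentiated hepatocytes, 1.19, 0.90 and 0.53 in differentiated cholangiocytes, 1.48 and 1.43 in primary cholangiocytes, and 0.92, 1.42, 0.44 and 1.95 in undifferentiated cells. The other 4 groups thus lay close together and primary hepatocytes apart. For a group below background only a bound can be given, against the lowest signals that were well above background on its arrays. On that basis Hk2 was at least 125-fold higher in differentiated than in primary hepatocytes (limma adjusted p = 1e-09). It was at least 160-fold lower in primary hepatocytes than in undifferentiated cells (limma adjusted p = 5.2e-10) and at least 193-fold lower than in primary cholangiocytes (limma adjusted p = 5.8e-09). These bounds hold for the background-subtracted signal only: with normexp background correction the differences were 4.10, -4.51 and -4.74, which are smaller than the bounds.

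Aldolase splits fructose 1,6-bisphosphate in the middle of the pathway. Aldoa had levels of 7.34, 7.58, 7.38 and 7.55 in differentiated hepatocytes, 6.62, 6.70 and 7.07 in differentiated cholangiocytes, 4.45, 4.53, 4.75 and 4.96 in primary hepatocytes, 7.51 and 7.26 in primary cholangiocytes, and 7.03, 7.16, 7.16 and 7.09 in undifferentiated cells. Primary hepatocytes were lowest with a gap to all other arrays. The differences were smaller than for Pkm or Hk1: 5.43-fold lower in primary hepatocytes than in undifferentiated cells (-2.44 ± 0.15, limma adjusted p = 6.34e-09) and 6.93-fold higher in differentiated than in primary hepatocytes (2.79 ± 0.15, limma adjusted p = 2.05e-09). Primary hepatocytes were 6.57-fold below primary cholangiocytes (-2.72 ± 0.19, limma adjusted p = 3.45e-08).

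Aldoa was also the one gene of the 8 that passed between the 2 cultured lineages. Differentiated hepatocytes were 1.58-fold above differentiated cholangiocytes (0.66 ± 0.16, limma adjusted p = 0.0138), and their arrays did not overlap. The call was lost in 4 of 20 alternative settings, among them leaving out differentiated cholangiocyte replicate 1 (0.57) or replicate 2 (0.62). Differentiated cholangiocytes were 1.50-fold below primary cholangiocytes (-0.59 ± 0.20, limma adjusted p = 0.0489), a call that 12 of 18 alternative settings lost. Leaving out differentiated cholangiocyte replicate 1 or 2 was enough, with differences of -0.50 and -0.54. Without primary cholangiocyte replicate 3 or 4, which leaves 1 array in that group, the differences were -0.46 and -0.71.

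Pyruvate kinase makes pyruvate and ATP in the last step. Pkm, whose transcript is spliced to the M1 or M2 form, had levels of 5.35, 5.34, 5.17 and 5.53 in differentiated hepatocytes, 5.53, 5.58 and 5.67 in differentiated cholangiocytes, -4.04, -3.61, -3.54 and -4.11 in primary hepatocytes, 5.35 and 4.26 in primary cholangiocytes, and 5.57, 5.64, 5.26 and 5.47 in undifferentiated cells. Primary hepatocytes lay far below the rest, whose arrays were close together apart from primary cholangiocyte replicate 4. Of the 7 genes above background in every group, Pkm had the largest difference between primary hepatocytes and undifferentiated cells, 634-fold lower (-9.31 ± 0.21, limma adjusted p = 2.72e-13). It was 577-fold higher in differentiated than in primary hepatocytes (9.17 ± 0.21, limma adjusted p = 3.79e-13) and 396-fold lower in primary hepatocytes than in primary cholangiocytes (-8.63 ± 0.26, limma adjusted p = 1.19e-11). With normexp background correction the 3 differences were -8.01, 7.89 and -7.38. Pkm did not pass between differentiated and primary cholangiocytes (0.79 ± 0.28, limma adjusted p = 0.061). Without primary cholangiocyte replicate 3, which leaves 1 array in that group, the difference was 1.33.

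Pklr, the pyruvate kinase of liver and red blood cells, had levels of -1.72, -2.81, -2.70 and -3.58 in differentiated hepatocytes, -1.99, -1.85 and -1.79 in differentiated cholangiocytes, -0.55, 0.96, -0.70 and -0.01 in primary hepatocytes, -4.33 and -4.82 in primary cholangiocytes, and -1.69, -1.27, -2.17 and -2.95 in undifferentiated cells. Primary hepatocytes were highest and primary cholangiocytes lowest, and neither overlapped another group. The 3 other groups overlapped. Pklr was 3.85-fold higher in primary hepatocytes than in undifferentiated cells (1.95 ± 0.44, limma adjusted p = 0.00152) and 22.6-fold higher than in primary cholangiocytes (4.50 ± 0.54, limma adjusted p = 9.05e-06). It was 6.18-fold lower in differentiated than in primary hepatocytes (-2.63 ± 0.44, limma adjusted p = 0.000153).

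Pklr was the gene of the 8 that passed where primary cholangiocytes were set against undifferentiated cells, at 5.87-fold lower (-2.55 ± 0.54, limma adjusted p = 0.00458). Differentiated cholangiocytes were 6.47-fold above primary cholangiocytes (2.69 ± 0.57, limma adjusted p = 0.0047). Its difference of differentiated hepatocytes from undifferentiated cells, -0.68 ± 0.44, did not pass (limma adjusted p = 0.363). Red blood cells also use Pklr, and the 5 kept red blood cell markers had their highest summed level, mostly Alas2, in primary hepatocytes. Of the 5, 4 passed as higher there than in undifferentiated cells, where 37.6% of all genes were higher. The part of red blood cells in the Pklr result was not tested.

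The Pklr probe is printed because the gene has 2 annotated starts: in the rat, the upstream first exon serves red cells and the downstream one the liver. The probe is annotated to 2 RefSeq transcripts and the files place it on the plus strand at chr3:88948907-88949425, in a build not given in the sources used here. Its 60 bases lie over 519 bases of genome, so it crosses an exon junction.
Pklr probe: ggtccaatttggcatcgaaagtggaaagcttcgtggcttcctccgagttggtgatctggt

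Printed here, as 1 of the 2 annotated starts of each gene, are the 250 bases before the downstream Pklr start and before the upstream Pkm start. They lie at chr3:89136373-89136622 and chr9:59656326-59656575 on the plus strand of GRCm38.p6 (RefSeq), with capitals marking the same 7 motifs.
Pklr, downstream start: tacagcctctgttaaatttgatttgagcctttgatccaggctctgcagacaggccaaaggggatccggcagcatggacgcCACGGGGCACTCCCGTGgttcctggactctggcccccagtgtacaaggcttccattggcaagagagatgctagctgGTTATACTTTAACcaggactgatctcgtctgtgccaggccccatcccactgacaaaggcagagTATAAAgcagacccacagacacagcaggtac
Pkm, upstream start: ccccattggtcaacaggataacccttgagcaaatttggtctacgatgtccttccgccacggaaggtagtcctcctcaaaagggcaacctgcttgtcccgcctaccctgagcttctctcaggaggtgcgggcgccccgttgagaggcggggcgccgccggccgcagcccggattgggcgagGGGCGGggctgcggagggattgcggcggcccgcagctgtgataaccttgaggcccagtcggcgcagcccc

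The Pklr window held the carbohydrate response form, named for the element bound by ChREBP with Mlx, at positions -170 to -154. It also held the HNF1 form at -94 to -82 and TATAAA at -31. These spaced forms were spelled out after looking at this window, so that their presence is no test. Of the 32851 windows, 13 (0.04%) held the first form, 0.307% the second and 12.4% held TATAAA. The Pkm window held GGGCGG at -70 and none of the other 6 motifs. Its GC content was 66.4% with 21 CpG dinucleotides, against 54.4% and 5 in the Pklr window. At the other starts, the Pklr window held none of the 7 motifs and the Pkm window held ACGTG on the minus strand at -75, with GC contents of 50% and 61.6%, so the motifs depend on the start chosen.

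Changes in the balance of each isozyme pair were followed as the difference of the 2 levels on each array, set to 0 at the mean of the undifferentiated cells. Pklr minus Pkm was -0.55 ± 0.84 in differentiated hepatocytes (SD, n = 4), 0.03 ± 0.05 in differentiated cholangiocytes (n = 3), 11.26 ± 0.75 in primary hepatocytes (n = 4) and -1.87 ± 0.42 in primary cholangiocytes (n = 2), with an SD of 0.65 in undifferentiated cells (n = 4). Primary hepatocytes were at 10.35 to 12.08, far outside the other groups. Slc2a2 minus Slc2a1 was 0.79 ± 3.66, 0.51 ± 1.15, 9.76 ± 0.52 and -0.84 ± 1.33 in the same order of groups. In both pairs the arrays of primary hepatocytes overlapped no other group. Since the pairs were chosen with earlier results known, these balances carry no test.

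**Figure D2:**
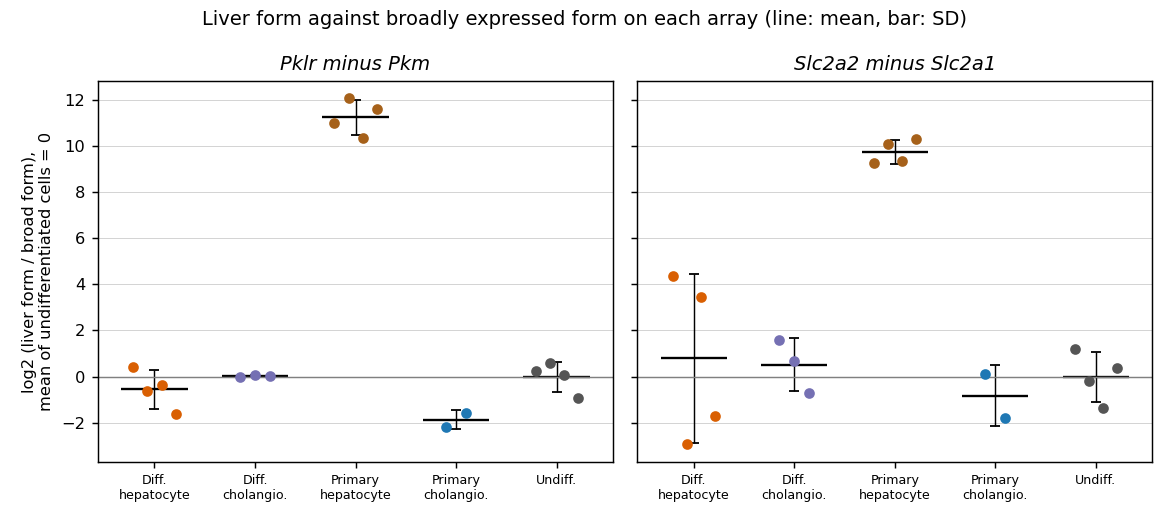
Liver form minus broadly expressed form (log2 level difference per array, mean of undifferentiated cells set to 0) for Pklr and Pkm and for Slc2a2 and Slc2a1, 1 point per array by group. Primary hepatocytes averaged 11.26 and 9.76, while differentiated hepatocytes ranged from -2.94 to 4.37 for the transporters.

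Ldha encodes the lactate dehydrogenase subunit of muscle and of most glycolytic tissues, and liver uses it as well. Its brightest probe had levels of 7.32, 7.18, 7.37 and 7.17 in differentiated hepatocytes, 6.94, 6.81 and 6.94 in differentiated cholangiocytes, 7.87, 7.40, 7.99 and 7.92 in primary hepatocytes, 7.08 and 6.75 in primary cholangiocytes, and 7.01, 7.05, 6.80 and 6.96 in undifferentiated cells. All 5 groups lay within a narrow range. Ldha was 1.79-fold higher in primary hepatocytes than in undifferentiated cells (0.84 ± 0.15, limma adjusted p = 0.000212), but the difference was 0.09 after quantile normalization and -0.04 in the authors' deposited table. In differentiated hepatocytes it was 1.45-fold lower than in primary hepatocytes (-0.53 ± 0.15, limma adjusted p = 0.00689), against 0.16 after quantile normalization and 0.25 in the authors' deposited table. Primary hepatocytes were 1.84-fold above primary cholangiocytes (0.88 ± 0.18, limma adjusted p = 0.00113), and this too turned, to -0.18 and to -0.31 in the authors' deposited table.

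The median gene was itself 0.44 higher in primary hepatocytes than in undifferentiated cells on this scale, and -0.01 after quantile normalization. Relative to the median gene the Ldha difference was 0.39. The other 2 Ldha probes gave 0.75 ± 0.20 (limma over probes, adjusted p = 0.00472) and 0.47 ± 0.20 (adjusted p = 0.0588). The sign of the Ldha difference from undifferentiated cells thus turned in the authors' deposited table, whose normalization is not known here, and the call was lost under quantile normalization and median scaling (0.39). None of the 7 other genes turned in direction in 21 alternative settings for this comparison.

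Set side by side, the comparisons differed in how many of the 8 genes passed. Between differentiated and primary hepatocytes all 8 passed, 5 higher and 3 lower, and the arrays of the 2 groups did not overlap for any of the 8. Of all genes, 59.7% passed (26% higher and 33.7% lower) and 56.4% did not overlap. One of these 8 calls, the lower level of Ldha, turned in direction under quantile normalization. The median difference over the 8 genes was 2.48, against -0.33 over all genes. Between primary hepatocytes and primary cholangiocytes all 8 passed, 3 higher and 5 lower, where 49.6% of all genes did (28% higher and 21.6% lower), and here too Ldha is the gene whose direction turned.

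Between differentiated hepatocytes and undifferentiated cells 0 of 8 passed in limma, against 15.3% of all genes (7.62% higher and 7.7% lower). Aldoa alone had an unadjusted p under 0.05, with a difference of 0.35 ± 0.15 (limma adjusted p = 0.145), and the authors' deposited table also called 0. Over all 25977 genes, 7180 had an unadjusted p under 0.05. Ldha differed by 0.30 ± 0.15 (limma adjusted p = 0.205). For Hk1, Hk2, Pkm and Slc2a1 the differences were -0.21 ± 0.35, -0.36 ± 0.40, -0.14 ± 0.21 and 0.06 ± 0.46. Between differentiated cholangiocytes and undifferentiated cells 0 of 8 passed as well, against 1.38% of all genes (0.785% higher and 0.597% lower). Of the 8, 0 had an unadjusted p under 0.05, against 3326 of all 25977 genes, and 0 had a call in the authors' deposited table. The differences in this comparison lay between -0.93 ± 0.50 for Slc2a1 and 0.14 ± 0.48 for Pklr. A difference that did not pass is not shown to be absent at this number of arrays.

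Fewer genes passed among the biliary and culture comparisons. Between differentiated and primary cholangiocytes 3 of 8 passed, where 19.6% of all genes did (11.9% higher and 7.64% lower): Pklr higher, and Slc2a1 and Aldoa lower. Hk1, Hk2, Slc2a2 and Ldha differed by -0.35 ± 0.45, -0.59 ± 0.52, -1.13 ± 1.42 and -0.02 ± 0.19 and did not pass. Between differentiated hepatocytes and differentiated cholangiocytes 1 of 8 passed (Aldoa), against 15.4% of all genes (6.97% higher and 8.41% lower), and Slc2a1 differed by 0.99 ± 0.50 (limma adjusted p = 0.224). Between primary cholangiocytes and undifferentiated cells 1 of 8 passed (Pklr, lower), against 19.1% of all genes (8.51% higher and 10.6% lower). Slc2a1 (1.55 ± 0.57, limma adjusted p = 0.0728) and Pkm (-0.68 ± 0.26, limma adjusted p = 0.0876) did not pass there. Without primary cholangiocyte replicate 3, which leaves 1 array in that group, these differences were 2.72 and -1.22.

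**Figure D3:**
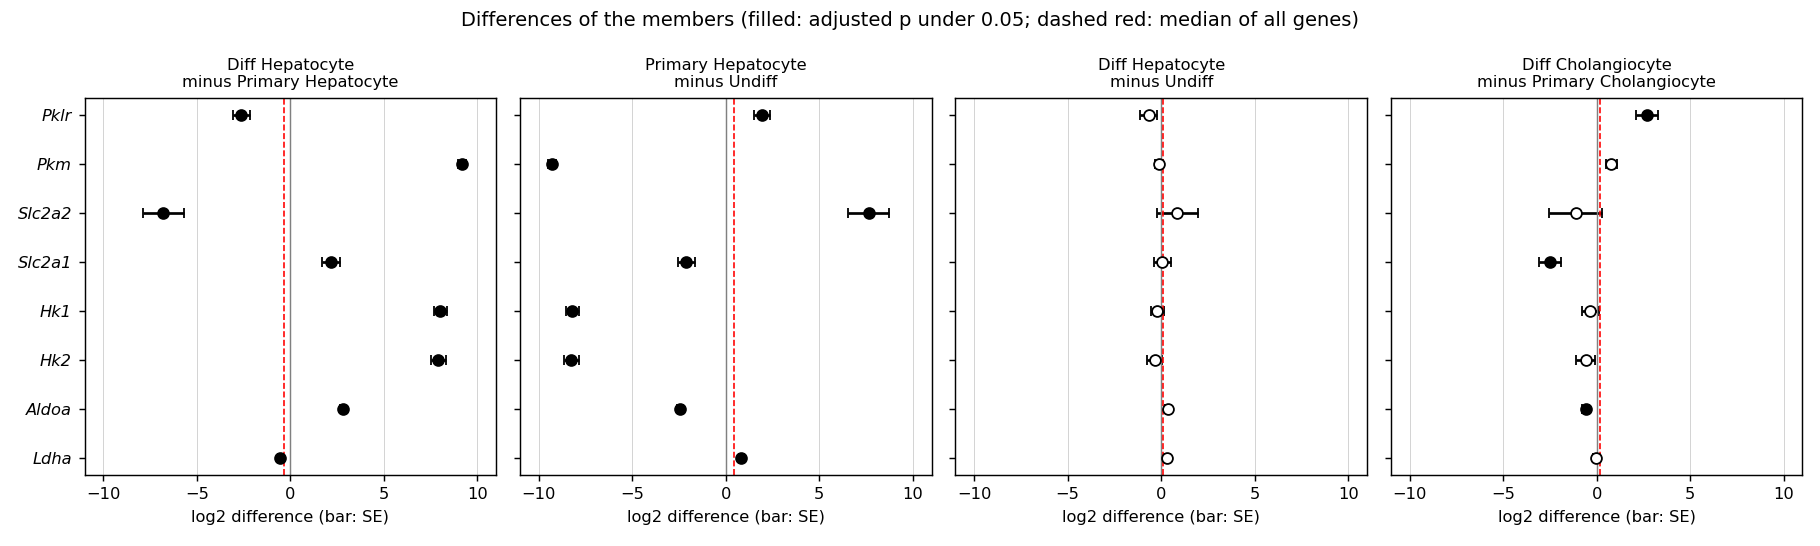
Difference in level (log2, ± SE from the limma fit) of each of the 8 genes in 4 comparisons: differentiated against primary hepatocytes, primary hepatocytes against undifferentiated cells, differentiated hepatocytes against undifferentiated cells, and differentiated against primary cholangiocytes. Filled points passed at an adjusted p under 0.05 and the dashed line is the median of all genes. The points of the first 2 panels lie far from 0 for Pkm, Hk1, Hk2 and Slc2a2, those of the third panel lie between -0.68 and 0.85, and the Ldha points of the first 2 panels change sign in the authors' deposited table.

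Whether the difference between the hepatocyte and the cholangiocyte lineage in culture matched that between the primary cells was tested directly, as the hepatocyte minus cholangiocyte difference in culture minus that in primary cells. It passed for 7 of 8 genes, where 37.7% of all genes did (15.5% positive and 22.2% negative). The test gave 8.39 ± 0.35 for Pkm, 8.36 ± 0.56 for Hk1, 4.65 ± 0.76 for Slc2a1 and 3.38 ± 0.25 for Aldoa. Hk2 gave 8.49 ± 0.65, a value that uses signals not above background in primary hepatocytes. For the liver forms it was -5.32 ± 0.72 (Pklr, limma adjusted p = 5.64e-05) and -5.67 ± 1.80 (Slc2a2, limma adjusted p = 0.0229). The Slc2a2 call was lost with replicate number as a block (-5.28, limma adjusted p = 0.0555) and with array weights (-5.90, limma adjusted p = 0.0561). Without primary cholangiocyte replicate 3 or replicate 4, which leaves 1 array in that group, the Slc2a2 value was -5.43 or -5.90. Ldha gave -0.51 ± 0.24 and did not pass (limma adjusted p = 0.111), and its sign turned to 0.65 under quantile normalization. Without primary hepatocyte replicate 2 the Ldha value was -0.64 and passed (limma adjusted p = 0.0293).

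Arrays were spread over 5 slides, and each slide held more than 1 group. Within the 3 slides that held both groups, primary hepatocytes minus undifferentiated cells gave -9.25, -9.02 and -9.68 for Pkm and 2.23, 2.25 and 1.69 for Pklr. For Slc2a2 the same slides gave 8.72, 7.01 and 7.12. Differentiated minus primary hepatocytes could be formed on 3 slides as well, with -3.77, -3.57 and -2.15 for Pklr and -10.30, -9.56 and -4.09 for Slc2a2. The direction within each slide was that of the whole comparison. On the slide that held both cholangiocyte groups the differentiated minus primary difference was 2.97 for Pklr and -3.85 for Slc2a1. The primary cholangiocyte array there was replicate 4, where Slc2a1 was at 5.62, against 3.28 in replicate 3.

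The 4 differentiated hepatocyte arrays differed widely among themselves in Slc2a2. Slc2a2 was at 1.53 and 0.31 in replicates 1 and 3, and at -4.65 and -4.40 in replicates 2 and 4. Alb, the main plasma protein gene of hepatocytes, followed the same division, at 7.62 and 7.58 against -4.76 and -3.65. Gckr, a nuclear regulator of glucose phosphorylation in liver, was at -0.05 and 1.01 in replicates 1 and 3 and at -6.28 and -7.01 in replicates 2 and 4, where the last was not above background. The summed hepatocyte markers were 485 and 359 in replicates 1 and 3, and 33.8 and 7.66 in the other two. Pkm stayed between 5.17 and 5.53 on all 4 arrays.

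Undifferentiated arrays were also uneven in hepatocyte markers, with sums of 103, 25.8, 10.2 and 0.13 in replicates 1 to 4. Slc2a2 in the same arrays was at -1.97, -3.07, -3.33 and -2.24, a range of 1.36, against 6.18 over the differentiated hepatocytes. In differentiated hepatocytes, Pklr was also higher in replicates 1 and 3, at -1.72 and -2.70, than in replicates 2 and 4, at -2.81 and -3.58. Replicates 3 and 2 lay close together, so Pklr showed no clear split. The part of the hepatocyte-marker difference in the Slc2a2 values was not tested.

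**Figure D4:**
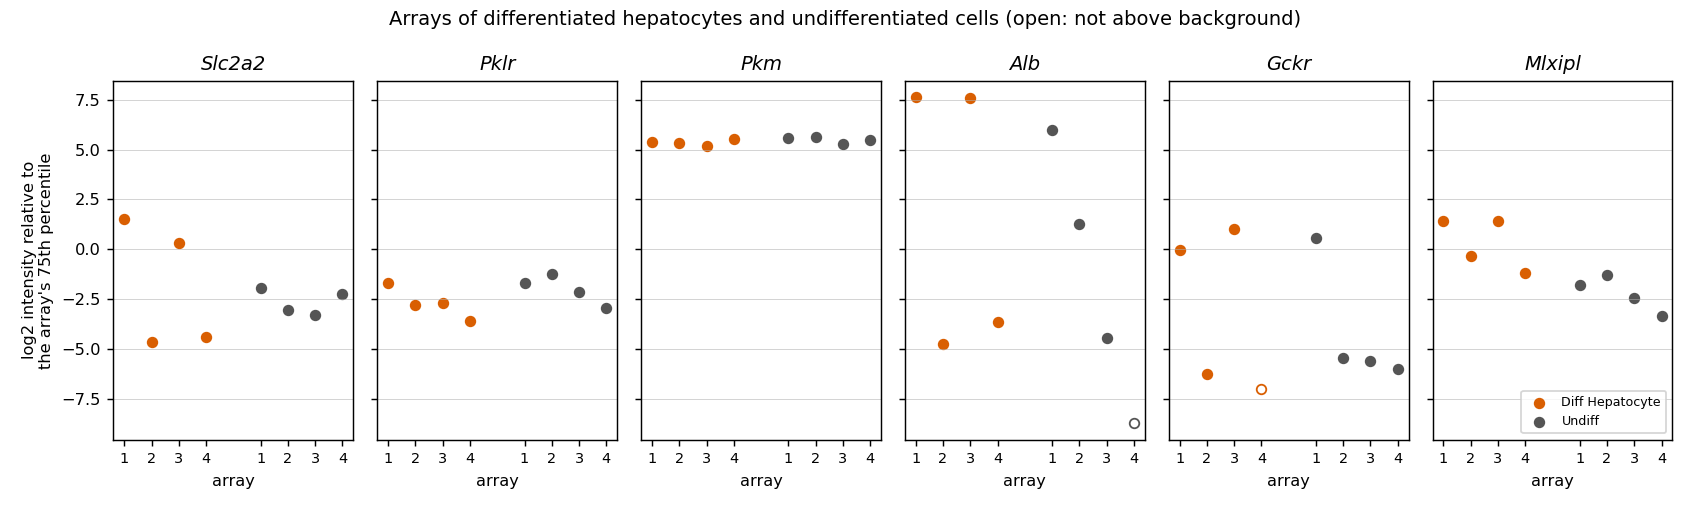
Level (log2) of Slc2a2, Pklr, Pkm, Alb, Gckr and Mlxipl on each of the 4 differentiated hepatocyte arrays and the 4 undifferentiated arrays. Slc2a2, Alb and Gckr are high in differentiated hepatocyte replicates 1 and 3 and low in replicates 2 and 4, while Pkm lies between 5.17 and 5.64 on all 8 arrays.

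A list of 4 further genes of liver glucose and fructose use held Gckr, Pfkl, Pfkfb1 and Khk. In primary hepatocytes 3 of the 4 were higher and 0 lower than in undifferentiated cells (median difference 3.77, against 0.44 over all genes). Of all genes, 37.6% were higher and 26.6% lower there. In differentiated against primary hepatocytes 3 were lower and 1 higher (median -3.44, against -0.33), where 33.7% of all genes were lower and 26% higher. Gckr was higher in primary hepatocytes than in undifferentiated cells by 9.72 ± 1.78 (limma adjusted p = 0.000273). Pfkfb1, a liver enzyme that sets fructose 2,6-bisphosphate, was higher as well (2.82 ± 0.38, limma adjusted p = 1.65e-05). Khk, the ketohexokinase of fructose metabolism, was the other, with 4.72 ± 0.37 (limma adjusted p = 7.72e-08). Pfkl, the liver subunit of phosphofructokinase, differed by -0.18 ± 0.27 between primary hepatocytes and undifferentiated cells (limma adjusted p = 0.577). It was the 1 gene of the 4 that passed in differentiated hepatocytes against undifferentiated cells (1.76 ± 0.27, limma adjusted p = 0.000754), where 15.3% of all genes did. It was lower in differentiated than in primary cholangiocytes (-2.27 ± 0.35, limma adjusted p = 0.000465), where the other three did not pass.

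Among 25 other genes of glucose uptake, glycolysis and pyruvate and lactate handling, 6 were higher and 12 lower in primary hepatocytes than in undifferentiated cells, where 37.6% of all genes were higher and 26.6% lower. The median difference was -0.66, against 0.44 over all genes. Hkdc1, a hexokinase-like gene, was below background in primary hepatocytes and at least 102-fold lower than in undifferentiated cells (limma adjusted p = 0.00121). Pfkp, the platelet-type phosphofructokinase, was lower (-5.01 ± 0.39, limma adjusted p = 7.52e-08) and above background on 2 of 4 primary hepatocyte arrays. Slc2a4, the insulin-responsive transporter of muscle and fat, was higher (limma adjusted p = 0.00119), at mean levels of -2.92 in primary hepatocytes and -8.14 in undifferentiated cells, where it was above background on 1 of 4 arrays. Pdk1, a kinase that inhibits pyruvate dehydrogenase, was higher as well (3.14 ± 0.39, limma adjusted p = 7.34e-06). Eno1, the broadly expressed enolase, did not pass (-0.27 ± 0.17, limma adjusted p = 0.183).

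In differentiated hepatocytes, 11 of these 25 passed against undifferentiated cells, 8 higher and 3 lower, where 15.3% of all genes passed. The highest was Slc16a3, the lactate exporter MCT4 (3.23 ± 0.58, limma adjusted p = 0.00216), followed by Pfkp (2.02 ± 0.39, limma adjusted p = 0.00358) and Pdk1 (1.67 ± 0.39, limma adjusted p = 0.00978). Eno3, the muscle enolase, was lower (-1.46 ± 0.39, limma adjusted p = 0.0206), and Pfkm, the muscle phosphofructokinase, was too (-1.14 ± 0.18, limma adjusted p = 0.000994). Against primary hepatocytes 12 were higher and 6 lower, where 26% of all genes were higher and 33.7% lower. Pfkp was at 7.03 ± 0.39 (limma adjusted p = 2.87e-09) and Slc16a3 at 5.95 ± 0.58 (limma adjusted p = 9.09e-07).

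In the cholangiocytes, 3 of the 25 were higher and 7 lower in culture than in primary cells, against 11.9% and 7.64% of all genes. Slc16a3 was lower (-6.75 ± 0.75, limma adjusted p = 3.63e-05), and Slc2a3, the neuronal-type transporter GLUT3, was at least 26.7-fold lower, being below background in the differentiated cells (limma adjusted p = 5.82e-05). Pfkp was lower (-3.49 ± 0.51, limma adjusted p = 0.000328), and Pdk4, another pyruvate dehydrogenase kinase, was higher (3.19 ± 0.83, limma adjusted p = 0.0148). The 8 leukocyte and Kupffer markers summed to 5.97 to 9.52 in differentiated and 25 to 26.3 in primary cholangiocytes, a sum carried by Cd14, at mean levels of 2.73 and 4.63. Of the 8, 2 were lower and 0 higher in differentiated cholangiocytes, and their part in these results was not tested. Against undifferentiated cells, differentiated cholangiocytes differed in 1 of the 25, Aldoc, the brain-type aldolase (-2.79 ± 0.62, limma adjusted p = 0.0441). Of the 4 liver genes 0 passed there in limma, where 1.38% of all genes passed. An unadjusted p under 0.05 was seen for 0 of the 4 and for 3326 of all 25977 genes.

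**Figure D5:**
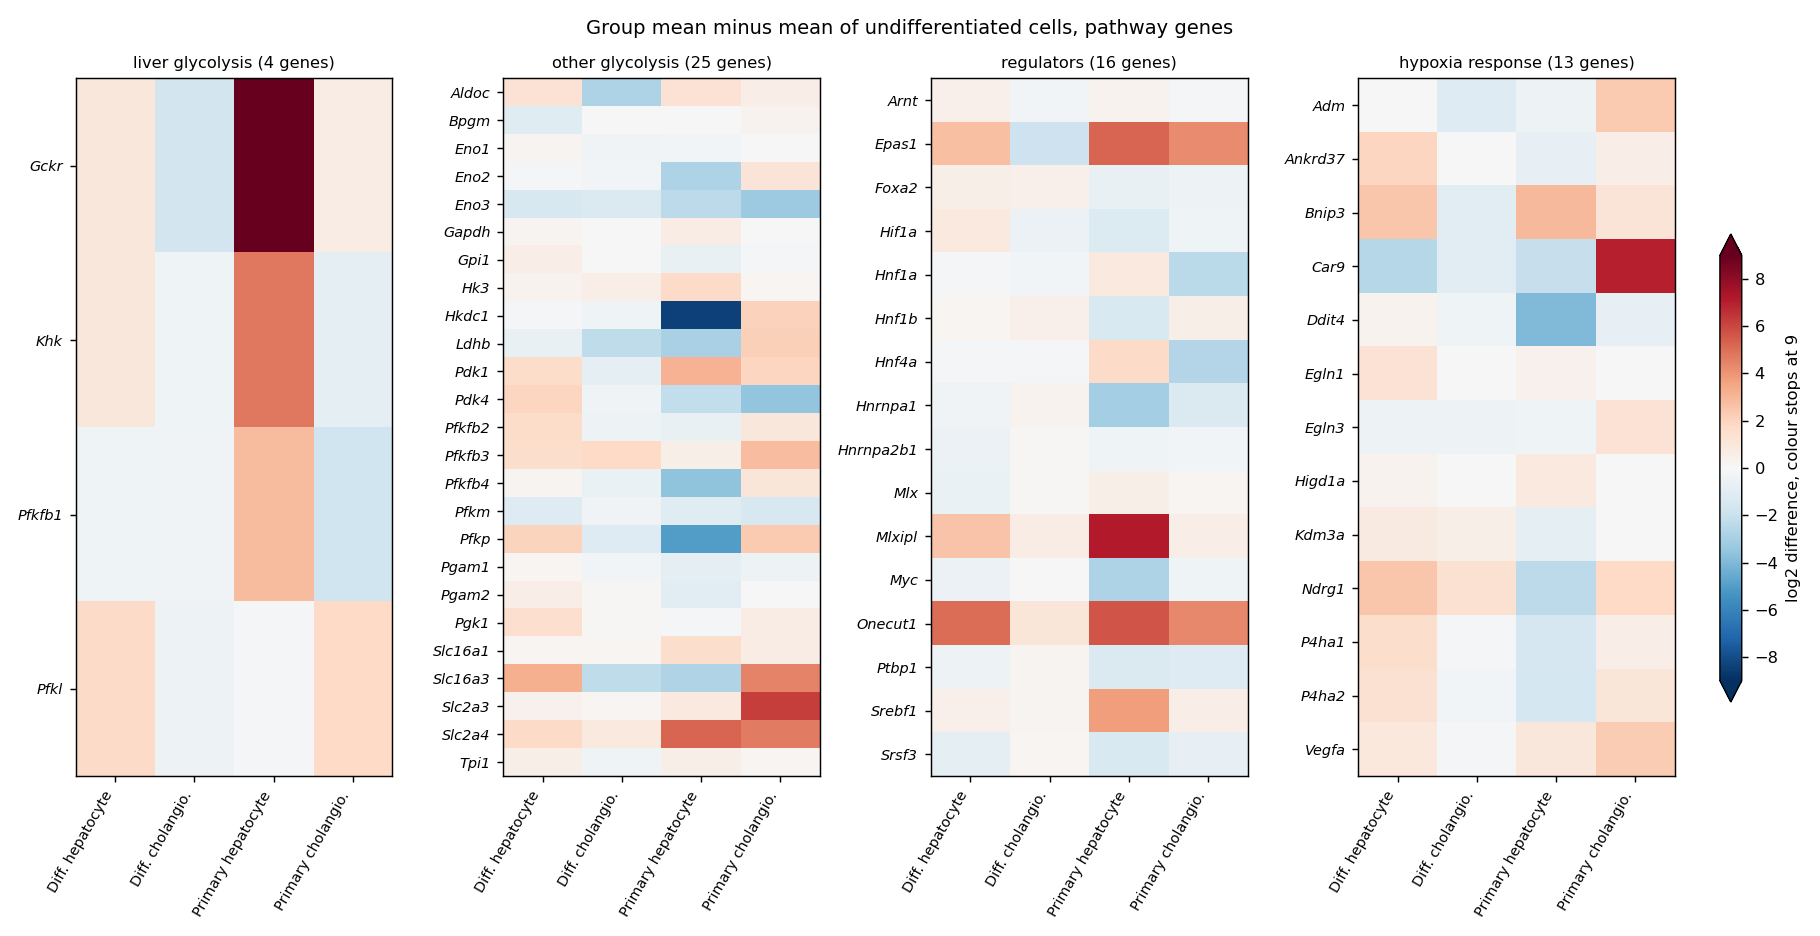
Group mean level minus the mean of undifferentiated cells (log2, colour scale stopping at 9 in both directions) for 4 liver glycolysis genes, 25 other glycolysis genes, 16 regulators and 13 hypoxia-response genes, in columns for differentiated hepatocytes, differentiated cholangiocytes, primary hepatocytes and primary cholangiocytes. Gckr and Khk lie at 1.05 in differentiated hepatocytes, and at 9.72 and 4.72 in primary hepatocytes.

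Of 16 regulators of these isozymes, 7 were higher and 7 lower in primary hepatocytes than in undifferentiated cells, where 64.2% of all genes passed (37.6% higher and 26.6% lower). Mlxipl, which encodes ChREBP, the glucose-sensing activator of Pklr, was higher by 7.17 ± 0.61 (limma adjusted p = 1.79e-07), and Srebf1, a factor that drives lipid synthesis, by 3.79 ± 0.32 (limma adjusted p = 1.57e-07). Hnrnpa1, a splicing factor that favours the M2 form of Pkm, was lower (-3.08 ± 0.13, limma adjusted p = 1.4e-10), and Myc was lower too (-2.75 ± 0.41, limma adjusted p = 3.93e-05). The array cannot tell the M1 and M2 forms apart with the 1 Pkm probe. Hnrnpa2b1 (-0.38 ± 0.22) and Arnt (0.29 ± 0.19) did not pass.

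Differentiated hepatocytes had Mlxipl at 1.40, -0.33, 1.39 and -1.17, against -1.82, -1.29, -2.44 and -3.38 in undifferentiated cells. The groups did not overlap, replicates 1 and 3 were again the higher ones, and the difference was 2.55 ± 0.61 (limma adjusted p = 0.0117). Pklr, its known target, did not pass in the same comparison. Onecut1, a liver-enriched factor also called HNF6, was higher in differentiated hepatocytes than in undifferentiated cells (limma adjusted p = 0.000951), at mean levels of -2.43 and -7.45, though above background on 2 of the 4 undifferentiated arrays. Higher as well were Epas1 (2.73 ± 0.44, limma adjusted p = 0.00103) and Hif1a (0.91 ± 0.19, limma adjusted p = 0.00559), both subunits of hypoxia-inducible factors. In all, 4 of 16 were higher and 2 lower there, against 7.62% and 7.7% of all genes. Mlxipl remained lower than in primary hepatocytes (-4.61 ± 0.61, limma adjusted p = 1.76e-05).

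Hypoxia-response genes outside glycolysis were listed because Slc2a1, Hk1, Hk2, Aldoa, Pkm and Ldha are known targets of hypoxia-inducible factors. Of 13, 7 were higher and 1 lower in differentiated hepatocytes than in undifferentiated cells, against 7.62% and 7.7% of all genes, with a median of 0.96, against 0.07 over all genes. Bnip3, a mitophagy receptor, was higher by 2.47 ± 0.41 (limma adjusted p = 0.00136), Ndrg1 by 2.47 ± 0.50 (limma adjusted p = 0.00481) and P4ha1, a collagen prolyl hydroxylase subunit, by 1.61 ± 0.42 (limma adjusted p = 0.0187). Car9, a carbonic anhydrase, was lower (-2.54 ± 0.78, limma adjusted p = 0.0416). The 6 isozyme genes known as targets had no call in that comparison. The part of hypoxia-inducible factors in the levels of either set was not tested.

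The same 13 genes split in primary hepatocytes, where 3 were higher and 6 lower than in undifferentiated cells, against 37.6% and 26.6% of all genes. Bnip3 was higher (2.93 ± 0.41, limma adjusted p = 2.63e-05) and Ddit4, a stress-induced inhibitor of mTORC1, was lower (-3.99 ± 0.26, limma adjusted p = 1.05e-08). In differentiated cholangiocytes 5 were lower and 0 higher than in primary cholangiocytes, against 7.64% and 11.9% of all genes. Car9 (-7.97 ± 1.01, limma adjusted p = 0.000109) and Adm, which encodes adrenomedullin (-3.52 ± 0.54, limma adjusted p = 0.000472), had the largest of these 5 differences. Slc2a1 was lower in the same comparison, a difference that depends on primary cholangiocyte replicate 4, as given above. A link between Slc2a1 and these genes was not tested.

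Across the 17 arrays, the levels of the broadly expressed genes went together. Pearson's r was 0.987 between Hk1 and Pkm, 0.961 between Pkm and Aldoa, and 0.679 between Pkm and Slc2a1. Slc2a2 and Pklr had r = 0.698 with each other, and -0.91 and -0.703 with Pkm. The primary hepatocyte arrays stand apart from all others and share a tissue source and low intensity, so these values mostly describe that one separation.

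Among 20143 genes with a symbol, those most like Pklr were Abcg2, a drug and urate exporter (r = 0.94), Slc2a9, a urate transporter (0.929), Gm10768 (0.925) and Cldn10, a tight junction claudin (0.925). Abcg2 had its lowest mean level in primary cholangiocytes (-0.29 ± 0.12, SD, n = 2), as Pklr had. For Slc2a2 the most similar were Akr1d1, a steroid reductase of bile acid synthesis (0.977), Etnk2 (0.976), Slc26a1 (0.976) and Mbl2, the plasma mannose-binding lectin (0.975). For Pkm they were Gm6560 (0.998), Ano1, a chloride channel (0.997), Niban1 (0.997) and Mfge8 (0.997).

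Gm6560 is described in the files as similar to muscle-type pyruvate kinase, and such copies may share RNA signal with the gene they resemble. In primary hepatocytes against undifferentiated cells it differed by -8.51 (limma adjusted p = 1.12e-13), and the like-described Gm2124 and Gm13812 by -9.64 and -6.86. A further one, Gm5216, differed by 0.47 and did not pass (limma adjusted p = 0.374). Gm8767 and Gm5276, described as similar to aldolase A, differed by -2.80 and -3.70. The brightest Ldha probe shares a run of 33 bases with the probe of Gm11814, the longest such run of any of the 11 probes with another gene's probe. Signals of these genes and of their copies cannot be told apart with certainty.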

How the data were processed

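Background-subtracted Cy3 intensities of 17 arrays, 1 colour and 1 array per sample, were deposited as scanner output of Feature Extraction, version 10.5.1.1 per the file headers and 9.53 per the submitters' processing notes. RNA was amplified before labelling, per the labels' protocols. The authors also deposited a table of comparisons, each with a fold, given as a signed score that is negative where the first-named group was lower, and with a percent false discovery rate. The sources used here give neither the normalization nor the test behind it.

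Each array's log2 intensity was set relative to its 75th percentile, 1377 control spots and 135 probes with outlier flags were left out, and 0 non-control spots were saturated. A probe was kept if well above background on at least 2 of 17 arrays, which left 32305 probes of 25977 genes, and the probe with the highest mean stood for its gene. Of 39429 probes, 26412 were named through RefSeq accessions, 3854 by current symbol and 735 by older symbol, and 8428 kept the file's name. All 17 arrays were fitted together with limma 3.58.1 (lmFit and eBayes, R 4.3.3), with p-values adjusted over all genes, two-sided, after testing the procedure on simulated data. The number of arrays limits the precision.

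The genes and lists were chosen with earlier results of these data known. All 8 genes were named in every comparison. Of each list, up to 4 genes per direction by size among those that passed were named, and up to 2 that did not. Some genes of the lists are not reported here. Every same-numbered pair of arrays correlated in its deviations at over 0.1 between differentiated cholangiocytes and undifferentiated cells (r = 0.385, 0.281 and 0.318), which was so in no other comparison with 3 or more pairs, although 1 pair of differentiated hepatocytes and undifferentiated cells reached 0.519. In the cholangiocyte comparison the block changed no call of the 8 genes. Alternatives tried were background correction, scaling, filters, the probe of a gene, the arrays fitted, slide, replicate number, array weights, the authors' table and leaving out each array.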

Additional observations from a re-analysis of the deposited data

Results flagged for a closer look

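For 7 of the 8 genes, the hepatocyte minus cholangiocyte difference in cultured cells was not the difference between the primary cells, by a test of the difference itself in the limma fit. Pkm gave 8.39 (limma adjusted p = 8.98e-10), Hk1 gave 8.36 (limma adjusted p = 7.73e-08) and Aldoa gave 3.38 (limma adjusted p = 1.75e-07), all as culture minus primary on the log2 scale. Hk2 gave 8.49 (limma adjusted p = 2.8e-07), where primary hepatocytes were not above background, and Slc2a1 gave 4.65 (limma adjusted p = 0.000257). The liver forms were negative, at -5.32 for Pklr (limma adjusted p = 5.64e-05) and -5.67 for Slc2a2 (limma adjusted p = 0.0229). The Slc2a2 call was lost with replicate number as a block and with array weights. Of all genes, 37.7% passed the same test. None of the 24 groups of 4 arrays tested over the 8 genes had an array far from the other 3 by Dixon's criterion.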

How the results depend on the processing

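Primary hepatocytes were compared with differentiated hepatocytes, primary cholangiocytes and undifferentiated cells. In these 3 comparisons every alternative run kept the direction and the call of Hk1, Hk2, Pkm, Pklr, Aldoa, Slc2a1 and Slc2a2. The size was not kept: normexp brought Hk2 down to 4.10 between differentiated and primary hepatocytes. The exception among the 8 genes was Ldha, whose difference turned to 0.16 and 0.25 between differentiated and primary hepatocytes under quantile normalization and in the authors' deposited table, to -0.18 and -0.31 against primary cholangiocytes, and to -0.037 against undifferentiated cells in that table. Scaling to the median ended the Ldha call in all 3, at -0.35, 0.68 and 0.39; the cause was not tested. Between primary cholangiocytes and undifferentiated cells, Ldha turned to 0.053 with normexp, 0.26 with quantile normalization and 0.28 in the authors' deposited table. In the test of lineage by origin it turned to 0.65 (quantile) and 0.050 (second brightest probe). Between differentiated and primary cholangiocytes it turned to 0.036 (median scaling), 0.058 (slide block) and 1e-04 (replicate block), and between differentiated cholangiocytes and undifferentiated cells to 0.0065 (slide block). Differences near 0 turned too: Slc2a1 in differentiated hepatocytes against undifferentiated cells to -0.20 (median scaling), and in differentiated cholangiocytes against undifferentiated cells Pkm to -0.084 (median scaling), Hk2 to 0.087 (slide block) and Pklr to -0.051 (median scaling), -0.12 (slide block), -0.054 (replicate block), -0.045 (array weights) and -0.17 (replicate block in the compared groups, chosen after seeing the data).

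Leaving out 1 array gave -0.24 to 0.29 for Slc2a1 and -0.26 to 1.80 for Slc2a2 in differentiated hepatocytes against undifferentiated cells, -0.17 to 0.39 for Pklr in differentiated cholangiocytes against undifferentiated cells, -0.27 to 0.12 for Hk2 between the cultures, -0.18 to 0.15 for Ldha between differentiated and primary cholangiocytes, and -0.20 to 0.12 for Ldha in primary cholangiocytes against undifferentiated cells. With quantile or median scaling, with the second brightest probe, in the authors' deposited table or with a 2-fold minimum, 7 of the 8 passed in each comparison with primary hepatocytes. Of all 25977 genes, 13349 to 15830 passed in these comparisons with quantile normalization and 11899 to 15587 with median scaling. For the remaining settings no count over all genes is given here. Counts of the 8 genes moved by over 1.5 times in 3 comparisons. In primary cholangiocytes against undifferentiated cells, 2 passed with quantile normalization, as did 4713 of all 25977 genes. Between differentiated hepatocytes and differentiated cholangiocytes, 0 passed with median scaling, in a fit of the compared groups alone or when at least 2-fold was required, and 0 to 1 with 1 array left out. Of all 25977 genes, 2916 passed there with median scaling and 2881 in the compared groups alone. Between differentiated and primary cholangiocytes, 1 passed in the compared groups alone, where 1073 of all 25977 genes did, and 1 in the authors' deposited table. Leaving out either primary cholangiocyte array leaves 1 array in that group, so no count is given for those fits. Pklr minus Pkm in primary hepatocytes was 9.77 with normexp.

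Over all genes, differentiated cholangiocytes against undifferentiated cells gave 359 calls, but 181 with the slide block, 222 with the replicate block, 104 in the compared groups alone, 0 with both, and 800 with array weights. Differentiated against primary cholangiocytes gave 5087, but 1073 in the compared groups alone and 2806 with array weights; primary cholangiocytes against undifferentiated cells 4955, but 1628 and 2290; the test of lineage by origin 9805, but 16991 with normexp. The share of calls that were higher was 58.6% in primary hepatocytes against undifferentiated cells, and 71.7%, 47% and 45% with normexp, quantile and median scaling; 43.5% in differentiated against primary hepatocytes, and 27.8% with normexp; 56.4% against primary cholangiocytes, and 74.9%; 61% in differentiated against primary cholangiocytes, and 74.8%; 41.1% by lineage and origin, and 20% (52.4% with quantile). With median scaling it was 28.7% (49.7%) in differentiated hepatocytes, 37.3% (56.8%; 43.3% with quantile) in differentiated cholangiocytes and 32.8% (44.6%) in primary cholangiocytes, each against undifferentiated cells. Apart from differentiated cholangiocytes and undifferentiated cells, no comparison with 3 or more pairs had every same-numbered pair correlate at over 0.1. The 2 pairs of primary hepatocytes and primary cholangiocytes gave 0.141 and 0.048. With so few arrays this cannot show that they were unpaired. The replicate block ended 2 calls, Slc2a2 by lineage and origin (-5.28) and Aldoa between differentiated and primary cholangiocytes (-0.47).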
